A study of Mus musculus with 14 samples.

Results

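The claudins and tight junction genes were followed across small intestinal organoids lacking Atg16l1, Rnaseh2b or both in the epithelium. They comprise 9 genes chosen by symbol, namely the claudin genes Cldn2, Cldn3, Cldn4, Cldn7, Cldn15 and Cldn23, the occludin gene Ocln, the scaffold gene Tjp1 and F11r, which encodes junctional adhesion molecule A. The expression table held 18781 genes, and 7 of the 9 had a row in it. Cldn3 and Cldn4 were not analysed here. Organoids grow from isolated crypts into closed epithelial structures embedded in Matrigel, here in Intesticult medium with no treatment, and stranded mRNA libraries were made from their RNA. The study asked how autophagy through Atg16l1 acts in epithelium with the DNA damage that follows loss of RNase H2. WT organoids (4 libraries) carried floxed alleles of both Atg16l1 and Rnaseh2b and no Cre. Atg16l1ΔIEC organoids (4 libraries) were ATG16L1flox/flox with VillinCre+/-, and Rnaseh2bΔIEC organoids (2 libraries) were RNaseH2Bflox/flox with VillinCre+/-. Atg16l1/Rnaseh2bΔIEC organoids (4 libraries), called double-knockout here, were homozygous for both floxed alleles with VillinCre+/-. Villin drives Cre in epithelial cells, so every group with Cre differs from WT by Cre as well as by the deletion. The labels give no age of the mice and do not say whether libraries of a genotype came from separate animals, so p-values measure only the spread between these libraries, part of which may be technical.

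Tight junctions seal the space between neighbouring epithelial cells near the lumen and set which ions and solutes pass between them. Claudins are membrane proteins that form the strands. Some of them, such as claudin-2 and claudin-15, form channels for small cations and water, while others tighten the seal. Occludin lies in the same strands, ZO-1, the product of Tjp1, anchors them to actin, and junctional adhesion molecule A contributes to junction assembly and polarity. In the small intestine claudin-2 is known from crypts, claudin-15 serves sodium recycling for nutrient uptake, and claudin-7 lies mainly along the lateral membrane, where it binds EpCAM.

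Of the 7 genes measured, 4 passed the test in at least 1 of 7 comparisons between genotypes, namely Cldn2, Cldn7, Cldn15 and Tjp1. Among all genes tested 6.81% to 35.1% were called in a single comparison, and the share called in at least 1 was not counted. Cldn15 was lower in double-knockout organoids than in each other genotype, by 0.25 to 0.37 on the log2 scale. Cldn7 was slightly lower in double-knockout organoids than in WT and Atg16l1ΔIEC organoids. Tjp1 was slightly lower in Atg16l1ΔIEC than in WT and in double-knockout organoids. Cldn2 had the widest range of genotype means, 0.57, but libraries of the same genotype differed by more than that. Cldn23, Ocln and F11r passed the test in none of the 7 comparisons.

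The promoters of the 3 claudins with a call are shown first. Cldn15 and Cldn7 were lower and Cldn2 higher in double-knockout than in Atg16l1ΔIEC organoids, although the call on Cldn2 was lost in several fits. Each window holds 250 bases before and 50 after the RefSeq start in GRCm38.p6, on the plus strand in all 3 cases. Capitals mark TTTAT or its complement ATAAA, the core bound by CDX factors, which are homeobox regulators of intestinal genes. Cldn2 lies at chrX:139800558-139800857, Cldn15 at chr5:136967619-136967918 and Cldn7 at chr11:69964529-69964828. For Cldn7 the table lists 2 starts, and the one nearest to the annotated gene start was taken. The Cldn15 window lies wholly inside the annotated gene, which begins at 136966616, so its RefSeq start is not the annotated gene start.
Cldn2: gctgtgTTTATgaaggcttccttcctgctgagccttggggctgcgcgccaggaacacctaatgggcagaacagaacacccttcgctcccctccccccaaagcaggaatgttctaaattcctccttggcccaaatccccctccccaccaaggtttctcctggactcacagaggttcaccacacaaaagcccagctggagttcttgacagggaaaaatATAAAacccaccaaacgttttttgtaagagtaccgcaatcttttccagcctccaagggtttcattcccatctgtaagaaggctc
Cldn15: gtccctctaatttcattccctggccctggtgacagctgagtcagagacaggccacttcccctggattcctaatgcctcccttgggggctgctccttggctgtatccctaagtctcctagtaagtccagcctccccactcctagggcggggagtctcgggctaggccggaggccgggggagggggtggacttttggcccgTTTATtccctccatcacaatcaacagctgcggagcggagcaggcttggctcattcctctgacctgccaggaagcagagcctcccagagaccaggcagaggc
Cldn7: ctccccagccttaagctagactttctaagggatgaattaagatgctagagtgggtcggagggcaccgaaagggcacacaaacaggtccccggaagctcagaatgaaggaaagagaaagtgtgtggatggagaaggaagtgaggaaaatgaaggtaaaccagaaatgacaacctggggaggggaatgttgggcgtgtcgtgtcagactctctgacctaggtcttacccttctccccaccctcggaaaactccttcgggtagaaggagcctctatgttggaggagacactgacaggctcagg
TTTAT on either strand is common, being in 40.0% of 32851 RefSeq promoter windows of the same length. Cldn15 held 1 copy, which begins 51 bases before the start. Cldn2 held 2 copies, the second within TATAAA, a core promoter element that begins 35 bases before the start and is in 13.6% of windows. Cldn7 held none. Neither AGATAA (bound by a family of zinc-finger factors, 11.2% of windows), GTTAAT (part of the HNF1 motif, 7.1%) nor CAAAGT (part of the HNF4 motif, 14.4%) was in these 3 windows on either strand. GC content was 51.3% for Cldn2, 61.0% for Cldn15 and 52.0% for Cldn7. A match is a description of the letters and was not tested for binding or for activity. Ocln, Tjp1 and F11r also had a promoter entry.

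The values are on a log2 scale with a transformation that the sources used here do not name, and the depth of the libraries is unknown. The lowest values lie close together, with a median SD over the 14 libraries of 0.001 for genes at means from -3 to -2 and 0.037 from 2 to 3, against 0.151 from 6 to 7. Deletion of the floxed genes was visible. Against WT, Atg16l1 was lower by 2.54 in Atg16l1ΔIEC and by 1.07 in double-knockout organoids, and Rnaseh2b was lower by 1.36 in Rnaseh2bΔIEC and by 0.73 in double-knockout organoids. Both deleted genes were thus less reduced in double-knockout organoids than in the single knockouts. Libraries 1 and 2 of a genotype, and libraries 3 and 4, lay close together. The SD of gene-wise differences was 0.062 to 0.127 within such pairs and 0.176 to 0.262 between other libraries of a genotype. The labels do not say what a pair shares, and Rnaseh2bΔIEC organoids have only 1 pair. In each genotype of 4 libraries 1 pair was high in Xist, the RNA that coats the inactive X chromosome of female cells (13.24 to 13.78 on the log2 scale), and the other low (7.56 to 7.80), so the 4 libraries did not all come from 1 animal. Both Rnaseh2bΔIEC libraries were Xist-low (7.66 and 7.73), so each comparison with that genotype sets a group of only Xist-low libraries against mixed ones. With Xist high or low as a covariate, chosen after seeing the data, all 10 member calls reported here passed the limma test and F11r was also called lower in Atg16l1ΔIEC than in WT organoids. Library names place the WT samples in lane 1 and the single knockouts in lane 2, while double-knockout libraries 1 and 2 were in lane 2 and 3 and 4 in lane 1. A lane effect can thus be told from a genotype effect only by the double-knockout libraries. The epithelial markers Epcam, Cdh1, Krt8, Krt20 and Vil1 had a summed level of 16.63 to 16.73 (log2) in all libraries. Of 15 stromal, immune and endothelial markers 12 had a row and only Vim, Lyz2 and Pecam1 passed the filter, with Col1a2 at -1.33 and Cd3e at -1.33.

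Levels were compared between members after dividing by the bases in their exons. Cldn7 was highest at 12.93 on the log2 scale per kilobase (mean of 14 libraries), followed by Cldn15 at 12.29 and Cldn2 at 11.24. F11r was at 10.99, Ocln at 9.97, Tjp1 at 8.58 and Cldn23 at 4.78. Cldn7 stood above 99.4% of the genes tested on this scale and Cldn23 above only 19.8%. The order held in all 14 libraries for every neighbouring pair except Cldn2 and F11r, where Cldn2 was higher in 10 of 14. Thus the organoids expressed Cldn7 and the pore-forming Cldn15 and Cldn2 most strongly among the claudins measured. Exon bases are those of all annotated transcripts, so the scale is approximate. Of 22 other claudin genes listed, 11 had a row, and only Cldn12 passed the filter. Its mean log2 value was 10.97 without division by length, a scale on which Cldn2 was at 12.97 and F11r at 12.40. Cldn12 was not put on the scale per kilobase.

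**Figure D1:**
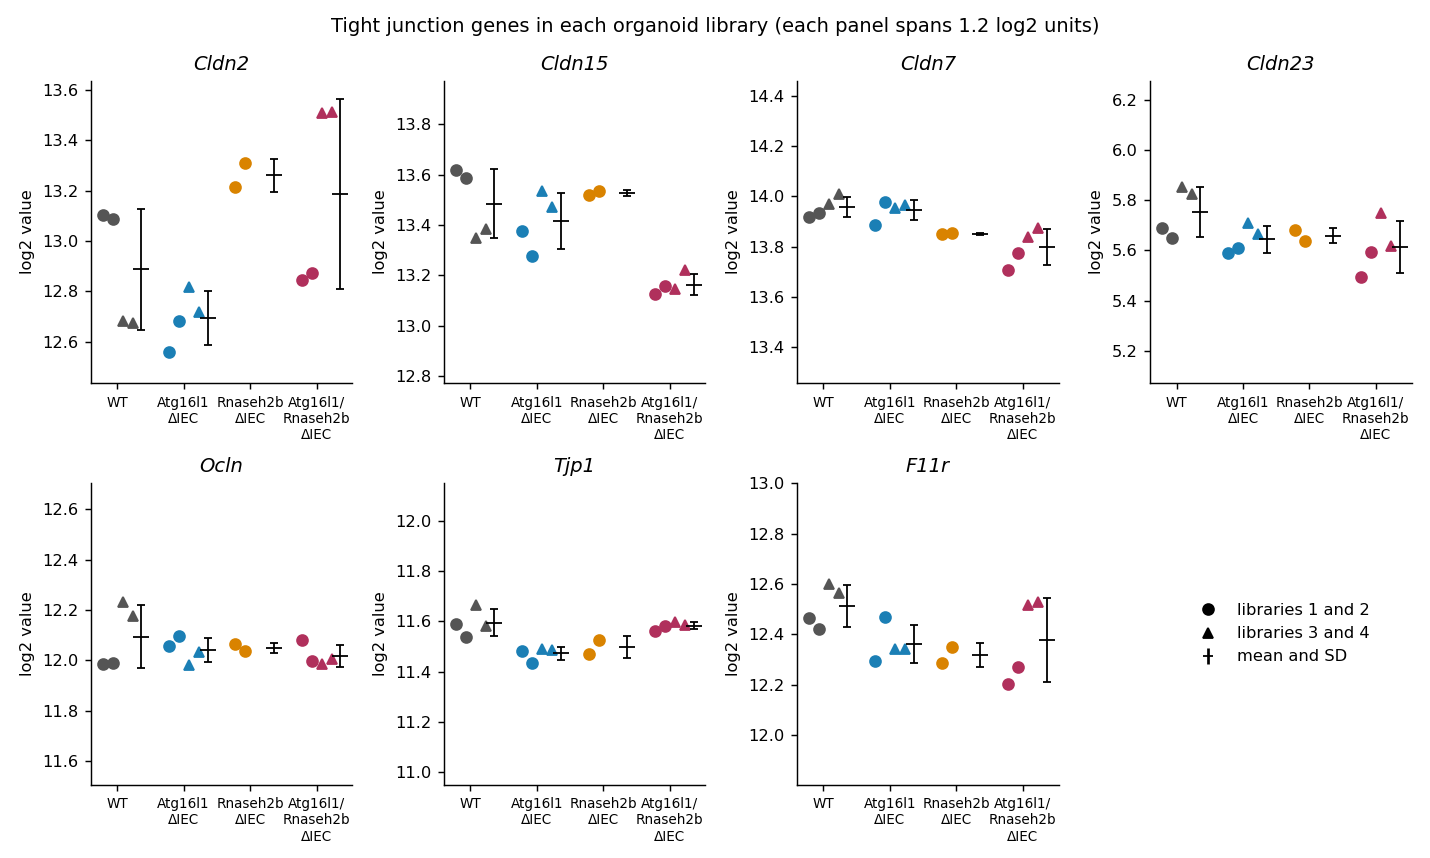
Log2 value of 7 tight junction genes in each of the 14 libraries, by genotype. Circles are libraries 1 and 2, triangles libraries 3 and 4, and the bar beside them the mean and SD. Cldn15 in the double-knockout libraries lies below all other libraries, and Cldn2 separates by library pair within WT and double-knockout organoids.

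Cldn15 (ENSMUSG00000001739, GRCm38 chr5:136966616-136975858, plus strand), the sodium-conducting claudin of the small intestine, had the most regular pattern. Its log2 values were 13.62, 13.59, 13.35 and 13.38 in WT and 13.38, 13.28, 13.53 and 13.47 in Atg16l1ΔIEC organoids. They were 13.52 and 13.54 in Rnaseh2bΔIEC organoids. The double-knockout libraries had 13.13, 13.16, 13.15 and 13.22. All 4 double-knockout libraries were lower than all 10 others, whose genotypes overlapped with each other. The mean was 13.16 ± 0.04 (SD, n = 4) in double-knockout, 13.48 ± 0.14 (SD, n = 4) in WT, 13.41 ± 0.11 (SD, n = 4) in Atg16l1ΔIEC and 13.53 ± 0.01 (SD, n = 2) in Rnaseh2bΔIEC organoids.

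Cldn15 in double-knockout organoids was 0.800 times its WT level (log2 difference -0.32, standard error 0.065, limma adjusted p = 0.0073, Benjamini-Hochberg over 12802 genes). Cldn15 and Cldn7 were the only members of 7 to pass the test in that comparison, both lower, where 8.1% of all genes tested were called higher and 8.01% lower. Against Rnaseh2bΔIEC organoids Cldn15 fell by 0.37 on the log2 scale (standard error 0.079, limma adjusted p = 0.0057) and was the only member called. The background there was 11.1% higher and 14.4% lower. Against Atg16l1ΔIEC organoids it fell by 0.25 (standard error 0.065, limma adjusted p = 0.015). The single knockouts gave differences from WT of -0.07 (95% confidence interval -0.21 to 0.07) for Atg16l1ΔIEC and 0.04 (-0.13 to 0.22) for Rnaseh2bΔIEC. The interaction, which is the effect of Rnaseh2b deletion on an Atg16l1-deleted background minus its effect on the WT background, was -0.30 for Cldn15 (standard error 0.10, limma adjusted p = 0.039). That call was lost without any 1 of WT library 3 or 4, Atg16l1ΔIEC library 3 or 4, either Rnaseh2bΔIEC library, or double-knockout library 1, 2 or 3 (-0.25 to -0.30), under the replicate block (-0.29, limma adjusted p = 0.082), and with no filter on low genes (limma adjusted p = 0.055).

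The difference of Cldn15 between double-knockout and Rnaseh2bΔIEC organoids was the only member call that stayed when the libraries of a pair were fitted as correlated. With that correlation estimated at 0.65, the limma adjusted p of Cldn15 against WT was 0.074 and against Atg16l1ΔIEC 0.084. With lane as a covariate the 3 differences were -0.30, -0.39 and -0.27, and all passed the test. Leaving out single libraries ended the call against Rnaseh2bΔIEC organoids without Rnaseh2bΔIEC library 2 (-0.36, limma adjusted p = 0.069) and that against Atg16l1ΔIEC organoids without Atg16l1ΔIEC library 3 (-0.21, limma adjusted p = 0.051). Without WT libraries 1 and 2, which have the higher Cldn15, the difference from WT was -0.20 (limma adjusted p = 0.084).

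Enterocyte markers moved with Cldn15 in part. The summed log2 level of 11 enterocyte markers, all with a row and all tested, was 16.95 to 17.40 in double-knockout, 17.10 to 17.70 in WT, 17.17 to 17.91 in Atg16l1ΔIEC and 18.15 to 18.28 in Rnaseh2bΔIEC libraries. Of the 11, 10 were lower in double-knockout than in Rnaseh2bΔIEC organoids, 3 lower than in Atg16l1ΔIEC, and 2 lower and 1 higher than in WT. The shares of all genes tested called lower were 14.4%, 12.5% and 8.01%, with 8.1% higher than in WT. Within WT and within Atg16l1ΔIEC organoids the pair with more enterocyte marker RNA also had more Cldn15. Double-knockout organoids went the other way. There libraries 1 and 2 had more marker RNA (17.050 and 17.395) than libraries 3 and 4 (16.950 and 17.015). Mean Cldn15 was 13.14 in libraries 1 and 2 and 13.18 in libraries 3 and 4. The Rnaseh2bΔIEC libraries, however, had the most enterocyte marker RNA, with Cldn15 inside the range of the WT libraries. The part of this in the Cldn15 difference was not tested, and in bulk RNA fewer cells of a type and less RNA per cell cannot be told apart. Among all other genes tested the 5 with the profile nearest to Cldn15 over the 14 libraries were Acsl1, Fuca1, Tmem184a, Atp1b1 and Papss1. Their mean absolute difference from Cldn15, each gene centred on its own mean, was 0.037 to 0.047, against 0.143 for the deviation of Cldn15 from its own mean.

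Cldn2 (ENSMUSG00000047230, GRCm38 chrX:139800828-139811386, plus strand), the cation and water channel claudin, varied most. Its log2 values were 13.10, 13.09, 12.68 and 12.68 in WT and 12.56, 12.68, 12.82 and 12.72 in Atg16l1ΔIEC libraries. They were 13.22 and 13.31 in Rnaseh2bΔIEC and 12.84, 12.87, 13.51 and 13.51 in double-knockout libraries. The highest libraries were double-knockout 3 and 4, while double-knockout 1 and 2 lay below WT 1 and 2. Pairs of the same genotype differed by 0.65 in double-knockout and by 0.42 in WT organoids, against at most 0.13 within a pair. Both Rnaseh2bΔIEC libraries were above all WT and Atg16l1ΔIEC libraries.

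Cldn2 was 0.49 higher in double-knockout than in Atg16l1ΔIEC organoids (standard error 0.16, limma adjusted p = 0.036), which is 40.6% on the linear scale. It was higher in 4 of 4 double-knockout libraries than in any Atg16l1ΔIEC library, though library 1 exceeded the highest of them by little. In that comparison 4 of 7 members passed the test, Cldn2 and Tjp1 higher and Cldn15 and Cldn7 lower, where 12.6% of all genes tested were called higher and 12.5% lower. The call on Cldn2 was lost in each fit that left out a single Atg16l1ΔIEC library or double-knockout library 3 or 4. Without double-knockout libraries 3 and 4 the difference was 0.16 (limma adjusted p = 0.31), and without 1 and 2 it was 0.82. The adjusted p in limma was 0.058 under the replicate block and 0.056 with no filter on low genes. The differences of Cldn2 from WT were 0.38 (95% confidence interval -0.04 to 0.79) in Rnaseh2bΔIEC, -0.19 (-0.53 to 0.14) in Atg16l1ΔIEC and 0.30 (-0.04 to 0.64) in double-knockout organoids. The intervals leave room for a change of more than 0.5 in each case.

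The differences of Cldn2 changed when lane entered the fit. Its difference between double-knockout and Atg16l1ΔIEC organoids dropped from 0.49 to 0.16 with lane as a covariate and was no longer called (limma adjusted p = 0.28). In that fit Cldn2 was 1.03 higher in Rnaseh2bΔIEC (limma adjusted p = 0.0036) and 0.63 higher in double-knockout than in WT organoids (limma adjusted p = 0.0047). In the same fit it was 0.40 lower in double-knockout than in Rnaseh2bΔIEC organoids (limma adjusted p = 0.038), and its interaction turned from 0.12 to -0.86 (limma adjusted p = 0.029). Within lane 2 alone the Rnaseh2bΔIEC libraries were 0.57 above Atg16l1ΔIEC (limma adjusted p = 0.0022) and 0.40 above double-knockout libraries 1 and 2 (limma adjusted p = 0.011). Lane and library pair coincide in the double-knockout organoids, so these cannot be told apart. In double-knockout organoids the Cldn2-high pair was Xist-high (13.65 and 13.78, against 7.56 and 7.70 in the other). In WT the Cldn2-high pair was Xist-low (7.69 and 7.70, against 13.60 and 13.68), and in Atg16l1ΔIEC the pair with the higher mean Cldn2 was Xist-low too (7.75 and 7.80, against 13.24 and 13.32), as were both Rnaseh2bΔIEC libraries. With Xist as a covariate Cldn2 remained 0.49 higher in double-knockout than in Atg16l1ΔIEC organoids (limma adjusted p = 0.033).

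Stem and Paneth cell markers, which like Cldn2 belong to crypts, were measured beside it. The summed level of 9 stem markers was 15.46 to 15.58 in WT, 14.89 to 15.17 in Atg16l1ΔIEC, 15.20 to 15.27 in Rnaseh2bΔIEC and 15.39 to 15.66 in double-knockout libraries. The highest genes, Slc12a2 (mean 14.06) and Smoc2 (13.47), weigh most in this sum. Its members did not all move together. In double-knockout against WT organoids 1 of 9 was called higher (Cd44, by 0.57) and 1 lower (Olfm4, by 1.51). Paneth cell markers (5 genes) averaged a summed level of 14.75 in Atg16l1ΔIEC, 14.82 in Rnaseh2bΔIEC and 15.58 in double-knockout libraries, with WT at 15.004. By their means, Atg16l1ΔIEC organoids thus had the lowest Cldn2 and the lowest stem and Paneth sums. Their Paneth sums ran from 14.42 to 15.08 and spanned those of WT (14.94 to 15.06). Between Atg16l1ΔIEC and WT organoids none of the 5 Paneth markers passed the limma test. In double-knockout organoids 4 of the 5 were higher than in Atg16l1ΔIEC, 3 higher than in WT and 1 higher than in Rnaseh2bΔIEC organoids. The shares of all genes tested called higher there were 12.6%, 8.1% and 11.1%. Rnaseh2bΔIEC organoids, with low mean sums too, had the highest mean Cldn2. The part of these cells in the Cldn2 values was not tested.

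The genes with profiles nearest to Cldn2 were Plut, Bin1, Tdrp, Rims2 and Gm2895, at mean absolute differences of 0.084 to 0.141, against 0.274 for the deviation of Cldn2 from its own mean. Plut was the nearest of all other genes tested. As a balance within each library, Cldn2 minus Cldn15 (log2, not per length) was -0.60 ± 0.11 (SD, n = 4) in WT and -0.72 ± 0.09 (SD, n = 4) in Atg16l1ΔIEC organoids. It was -0.27 ± 0.05 (SD, n = 2) in Rnaseh2bΔIEC and 0.02 ± 0.35 (SD, n = 4) in double-knockout organoids. All 6 libraries lacking Rnaseh2b, from -0.31 to 0.36, lay above all 8 libraries with the gene intact, from -0.82 to -0.50. The members of this difference were set side by side after their values were seen, so it is a description with no test.

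**Figure D2:**
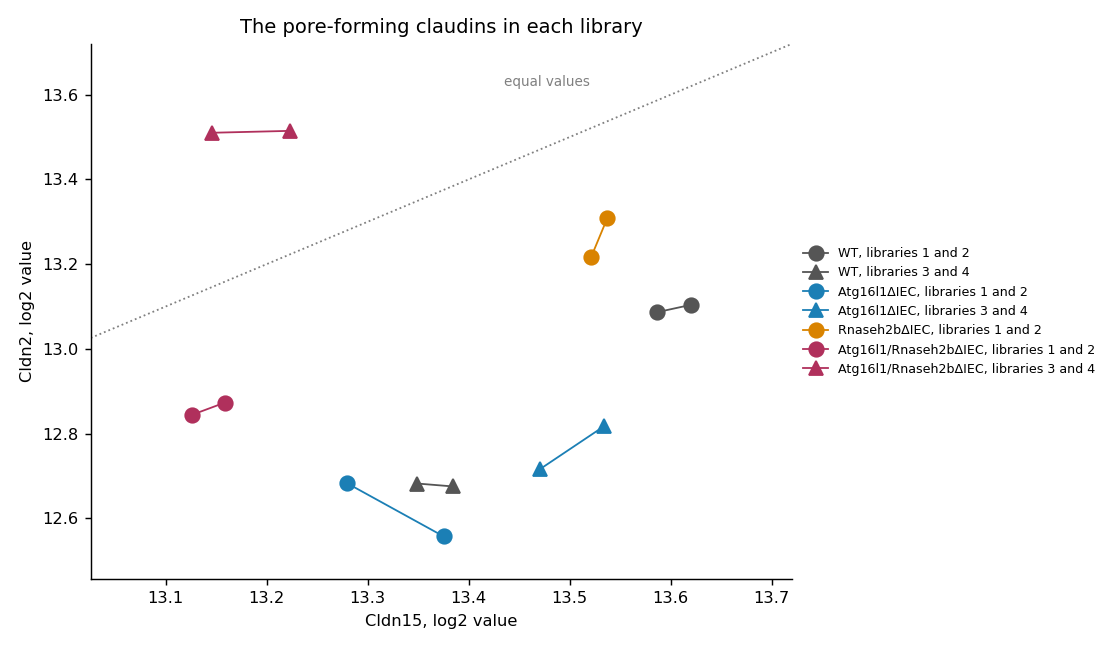
Log2 value of Cldn2 against that of Cldn15 in each library, with the libraries of a pair joined by a line and a dotted line where both are equal. The double-knockout libraries lie to the left, with Cldn15 from 13.13 to 13.22, and their pairs are 0.65 apart in Cldn2.

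Cldn7 (ENSMUSG00000018569, GRCm38 chr11:69964779-69967885, plus strand), the lateral claudin that binds EpCAM, had values of 13.92, 13.93, 13.97 and 14.01 in WT and 13.89, 13.98, 13.95 and 13.96 in Atg16l1ΔIEC libraries. The Rnaseh2bΔIEC libraries were both at 13.85. The double-knockout libraries had 13.71, 13.77, 13.84 and 13.87. These double-knockout values lay below every WT and Atg16l1ΔIEC library and overlapped those of Rnaseh2bΔIEC. Cldn7 fell by 10.4% from WT to double-knockout organoids (log2 difference -0.16, standard error 0.039, limma adjusted p = 0.017) and by 0.15 on the log2 scale from Atg16l1ΔIEC to double-knockout organoids (limma adjusted p = 0.017). Its difference from WT was -0.11 in Rnaseh2bΔIEC (limma adjusted p = 0.11) and -0.01 in Atg16l1ΔIEC organoids (95% confidence interval -0.10 to 0.07). Without double-knockout libraries 1 and 2, or with lane as a covariate, the difference between double-knockout and WT organoids was -0.10 (limma adjusted p = 0.11 in both fits). The difference from Atg16l1ΔIEC organoids was not called without Atg16l1ΔIEC library 4 (-0.14, limma adjusted p = 0.051). The partner gene Epcam passed the test in none of the 7 comparisons.

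Cldn23 (ENSMUSG00000055976, GRCm38 chr8:35824712-35826559, minus strand), a claudin of differentiated intestinal cells, was the lowest member. Its values were 5.69, 5.65, 5.85 and 5.83 in WT, 5.59, 5.61, 5.71 and 5.67 in Atg16l1ΔIEC, 5.68 and 5.64 in Rnaseh2bΔIEC, and 5.50, 5.59, 5.75 and 5.62 in double-knockout libraries. All genotypes overlapped. The largest difference was -0.14 between double-knockout and WT organoids (95% confidence interval -0.27 to -0.01, limma adjusted p = 0.12). With the replicate number as a block the same difference passed the test (limma adjusted p = 0.044), though the labels do not say that the number pairs samples.

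Ocln (ENSMUSG00000021638, GRCm38 chr13:100496507-100552718, minus strand), encoding occludin, was the steadiest member by its genotype means, which spanned 0.08. The libraries had 11.98, 11.99, 12.23 and 12.18 in WT, 12.06, 12.10, 11.98 and 12.03 in Atg16l1ΔIEC, 12.06 and 12.04 in Rnaseh2bΔIEC, and 12.08, 11.999, 11.98 and 12.01 in double-knockout organoids. WT libraries 3 and 4 were above all others, and the rest overlapped. The differences from WT were -0.05 (95% confidence interval -0.16 to 0.06) in Atg16l1ΔIEC, -0.04 (-0.18 to 0.09) in Rnaseh2bΔIEC and -0.08 (-0.19 to 0.03) in double-knockout organoids. A fall of more than 0.19 on the log2 scale thus lies outside each interval. The interval depends on the WT pair used, since without WT libraries 1 and 2 Ocln was lower in all 3 genotypes, by 0.16, 0.15 and 0.19 (limma adjusted p = 0.022, 0.031 and 0.028).

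Tjp1 (ENSMUSG00000030516, GRCm38 chr7:65296165-65527781, minus strand), encoding the scaffold ZO-1, moved little but regularly. Its values were 11.59, 11.54, 11.67 and 11.58 in WT, 11.48, 11.44, 11.49 and 11.49 in Atg16l1ΔIEC, 11.47 and 11.53 in Rnaseh2bΔIEC, and 11.56, 11.58, 11.60 and 11.59 in double-knockout libraries. All 6 single-knockout libraries were below all WT and double-knockout libraries. Tjp1 fell by 8.06% from WT to Atg16l1ΔIEC organoids (log2 difference -0.12, standard error 0.029, limma adjusted p = 0.012). It was the only 1 of 7 members called in that comparison, where 8.73% of all genes tested were called higher and 10.4% lower. It was 0.11 higher in double-knockout than in Atg16l1ΔIEC organoids (limma adjusted p = 0.018), and differed from WT by -0.01 (95% confidence interval -0.08 to 0.05) in double-knockout organoids.

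In Rnaseh2bΔIEC organoids Tjp1 was 0.10 below WT (limma adjusted p = 0.062, and 0.036 without WT library 2), and none of the 7 members passed the limma test in that comparison, while 14.4% of all genes tested were called higher and 12.3% lower. At an unadjusted p under 0.05 there were 3, namely Cldn7, Tjp1 and F11r, all lower. The interaction of Tjp1 was 0.21 (standard error 0.046, limma adjusted p = 0.0046), and with Cldn15 it was 1 of 2 members called, where 17% of all genes tested were called higher and 18.1% lower. With lane as a covariate the Tjp1 values were -0.10 for Atg16l1ΔIEC against WT (limma adjusted p = 0.19) and 0.18 for the interaction (limma adjusted p = 0.11), neither past the threshold. Between the single knockouts none of the 7 members passed the limma test, with 1 at an unadjusted p under 0.05, Cldn2, which was 0.57 higher in Rnaseh2bΔIEC organoids (limma adjusted p = 0.094). The background in that comparison was 4.34% higher and 2.47% lower.

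F11r (ENSMUSG00000038235, GRCm38 chr1:171437535-171464603, plus strand), encoding junctional adhesion molecule A, had values of 12.46, 12.42, 12.60 and 12.56 in WT and 12.30, 12.47, 12.34 and 12.34 in Atg16l1ΔIEC libraries. They were 12.29 and 12.35 in Rnaseh2bΔIEC, and 12.20, 12.27, 12.51 and 12.53 in double-knockout libraries. Both Rnaseh2bΔIEC libraries were below all WT libraries, the other genotypes overlapped with WT, and the double-knockout pairs were 0.28 apart. The differences from WT were -0.19 in Rnaseh2bΔIEC (95% confidence interval -0.38 to -0.01, limma adjusted p = 0.11), -0.15 in Atg16l1ΔIEC (limma adjusted p = 0.15) and -0.13 in double-knockout organoids (limma adjusted p = 0.21). All 3 means were below WT, and none passed the test. Without double-knockout libraries 3 and 4 the difference between double-knockout and WT organoids was -0.28 (limma adjusted p = 0.0059).

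**Figure D3:**
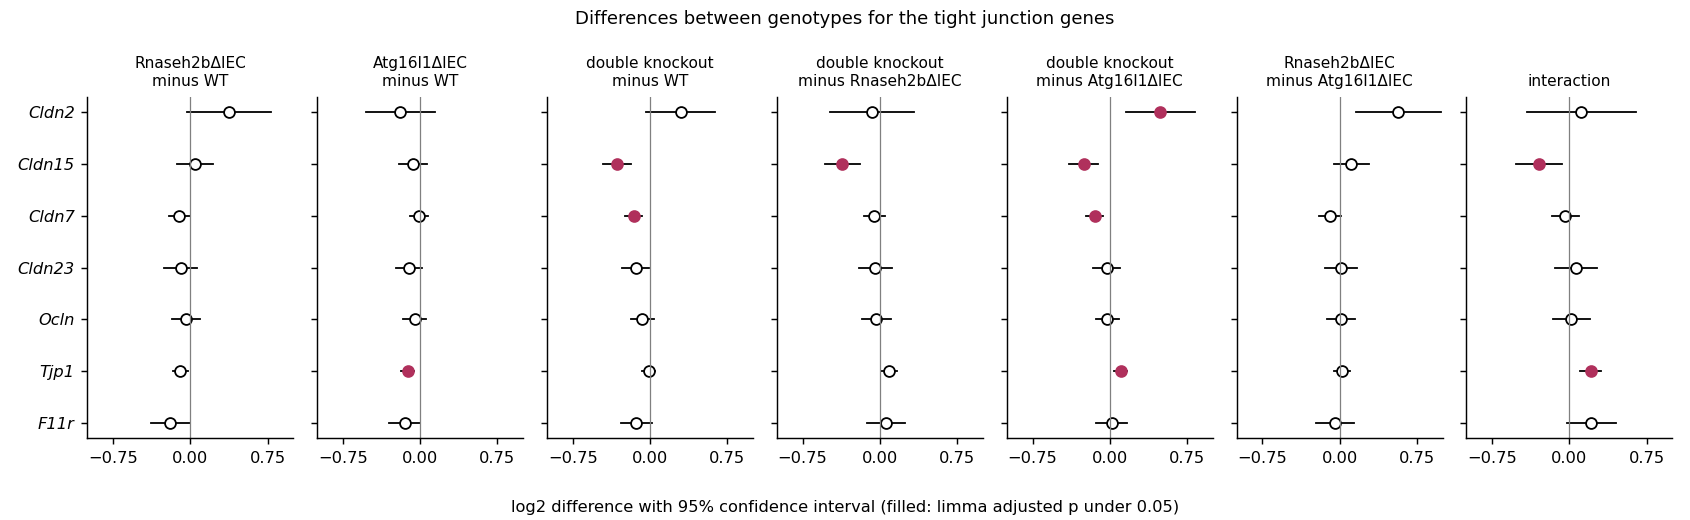
Log2 differences of 7 tight junction genes in 7 comparisons, with 95% confidence intervals from limma. Filled points passed the test, and the interaction is the effect of Rnaseh2b deletion with Atg16l1 deleted minus that with Atg16l1 intact. Cldn15 is lower in all 3 comparisons of double-knockout organoids, and the intervals of Cldn2 are the widest.

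Over the 7 members the median log2 difference from WT was -0.10 in Rnaseh2bΔIEC, -0.11 in Atg16l1ΔIEC and -0.13 in double-knockout organoids, beside 0.00 over all genes tested in each case. It was -0.04 for double-knockout against Rnaseh2bΔIEC and -0.02 against Atg16l1ΔIEC organoids. Of the 49 member values over 7 comparisons 10 passed the test. Among all genes tested 6.81% (between the single knockouts) to 35.1% (interaction) were called per comparison. The plot of called differences under the alternatives shows how far each of the 10 moved. In no alternative did any of these 10 change sign.

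**Figure D4:**
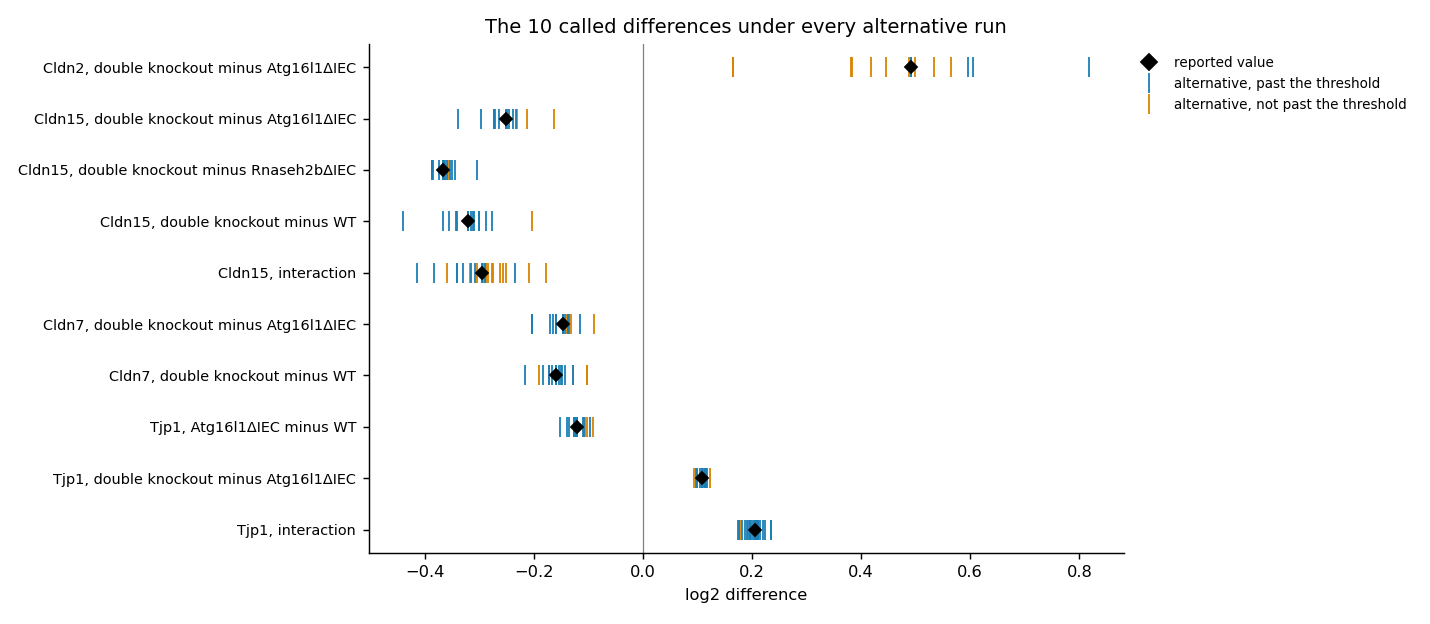
Log2 difference of each of the 10 called member differences as reported (diamond) and in every alternative fit (vertical marks, blue where past the threshold and orange where not). Cldn15 against Rnaseh2bΔIEC organoids stays between -0.39 and -0.30, while Cldn2 against Atg16l1ΔIEC organoids runs from 0.16 to 0.82.

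The wider junction was followed with 74 further genes in 9 lists (other claudins, tricellular and MARVEL proteins, scaffolds, adhesion molecules of the JAM and CAR family, polarity complexes, junction signalling, the EpCAM and matriptase axis, adherens junctions and desmosomes). Of these 62 had a row and 48 were tested. In Rnaseh2bΔIEC against WT organoids 2 were higher and 9 lower, in Atg16l1ΔIEC 1 and 6, and in double-knockout organoids 0 and 3 by the limma test, with 1 higher at an unadjusted p under 0.05 (Ctnnb1). Double-knockout organoids had 7 higher and 4 lower than Rnaseh2bΔIEC, and 6 higher and 4 lower than Atg16l1ΔIEC organoids. Between the single knockouts 1 was higher and 2 lower in Rnaseh2bΔIEC, and the interaction was positive for 10 and negative for 3. The medians of the 48 were -0.06 in both single knockouts and -0.05 in double-knockout organoids against WT. These counts are to be read against the background shares given above.

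Among scaffolds, Cgnl1, which encodes paracingulin, a protein linking junctions to the cytoskeleton, moved most. On the log2 scale it averaged 8.42 ± 0.03 (SD, n = 4) in the WT libraries, 7.81 ± 0.25 (SD, n = 4) in Atg16l1ΔIEC, 7.78 ± 0.11 (SD, n = 2) in Rnaseh2bΔIEC and 8.45 ± 0.34 (SD, n = 4) in double-knockout organoids. Cgnl1 was lower than WT by 0.61 in Atg16l1ΔIEC (limma adjusted p = 0.012) and by 0.64 in Rnaseh2bΔIEC organoids (limma adjusted p = 0.019). It differed from WT by 0.03 in double-knockout organoids, and its interaction was 1.27 (limma adjusted p = 0.0012). With lane as a covariate the single-knockout differences were -0.10 and -0.13 and were not called, and the interaction was 0.51 (limma adjusted p = 0.22). Stem cell markers moved alongside in part. Of 9, 7 were lower in Atg16l1ΔIEC and 2 lower in Rnaseh2bΔIEC than in WT organoids. In double-knockout organoids 6 of 9 were higher than in Atg16l1ΔIEC. The matching shares of all genes tested were 10.4%, 12.3% and 12.6%. Olfm4, however, was 1.51 lower in double-knockout than in WT organoids (limma adjusted p = 0.0049). Goblet cell markers also moved alongside, with 5 of 6 lower in Atg16l1ΔIEC and 3 of 6 lower in Rnaseh2bΔIEC than in WT organoids. All 6 were higher in double-knockout than in Atg16l1ΔIEC organoids. All 6 had a positive interaction past the limma threshold, as had 17% of all genes tested. The mean summed level of the goblet markers was 16.09 in WT, 15.54 in Atg16l1ΔIEC, 15.52 in Rnaseh2bΔIEC and 16.39 in double-knockout libraries. The part of either cell type in the Cgnl1 values was not tested. Patj, a scaffold of the Crumbs polarity complex, had a similar pattern at smaller size, lower by 0.16 in Atg16l1ΔIEC and 0.26 in Rnaseh2bΔIEC than in WT organoids, with an interaction of 0.37 (limma adjusted p = 0.00055).

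At tricellular junctions, where 3 cells meet, Ildr1 encodes angulin-2 and Marveld2 tricellulin. Ildr1 was 1.08 higher in double-knockout than in Rnaseh2bΔIEC organoids (limma adjusted p = 0.016), with an interaction of 1.34 (limma adjusted p = 0.014), but the 4 WT libraries alone ran from 7.54 to 8.61. Enteroendocrine markers moved alongside, with 2 of 5 higher in double-knockout than in Rnaseh2bΔIEC organoids and a mean summed level of 14.84 against 14.26. Of the goblet markers 5 of 6 were higher in the same comparison, at a mean summed level of 16.39 against 15.52. Of all genes tested 11.1% were called higher there. The part of either cell type in the Ildr1 values was not tested. Marveld2 was 0.27 lower in Rnaseh2bΔIEC than in WT organoids (limma adjusted p = 0.032). In the JAM and CAR family, Cxadr, which encodes the coxsackievirus and adenovirus receptor, was lower than WT by 0.27 in Atg16l1ΔIEC and by 0.24 in Rnaseh2bΔIEC organoids. Igsf5, the gene of JAM4, was higher by 0.13 and 0.17, so members of that family moved in opposite directions.

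Of the polarity genes Prkcz, encoding an atypical protein kinase C, was 0.18 lower in double-knockout than in WT organoids (limma adjusted p = 0.019) and 0.23 lower than in Rnaseh2bΔIEC organoids. Mylk, the gene of myosin light chain kinase, which contracts the actin ring at the junction, was lower in double-knockout organoids by 0.57 than in Rnaseh2bΔIEC (limma adjusted p = 0.015) and by 0.50 than in Atg16l1ΔIEC organoids (limma adjusted p = 0.011), with an interaction of -0.92. The calls of Mylk, Ildr1 and Cgnl1 against Rnaseh2bΔIEC organoids were each lost without either Rnaseh2bΔIEC library. Arhgef2, encoding a guanine nucleotide exchange factor held at tight junctions, was 0.28 lower in double-knockout than in Atg16l1ΔIEC organoids. In the matriptase axis Prss8, the gene of prostasin, was 0.18 higher in Rnaseh2bΔIEC than in WT organoids and 0.22 lower in double-knockout than in Rnaseh2bΔIEC organoids, while Spint1, a matriptase inhibitor gene, was 0.12 lower in double-knockout than in WT organoids. Genotype means of Mylk and of Prss8 ranked as the mean enterocyte marker sums did. Those sums were 17.10 in double-knockout, 17.36 in WT, 17.52 in Atg16l1ΔIEC and 18.22 in Rnaseh2bΔIEC libraries. The part of enterocytes in the Mylk and Prss8 values was not tested. Of the desmosome genes Dsc2, the desmocollin of intestinal epithelium, was lower than WT by 0.18 in Atg16l1ΔIEC and by 0.32 in Rnaseh2bΔIEC organoids, with an interaction of 0.42 (limma adjusted p = 4.7e-05). Dsg2, its desmoglein partner, was 0.17 lower in Rnaseh2bΔIEC than in WT organoids, Pkp3 was 0.13 lower and the adherens junction gene Ctnnb1 0.09 higher in double-knockout than in Atg16l1ΔIEC organoids.

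**Figure D5:**
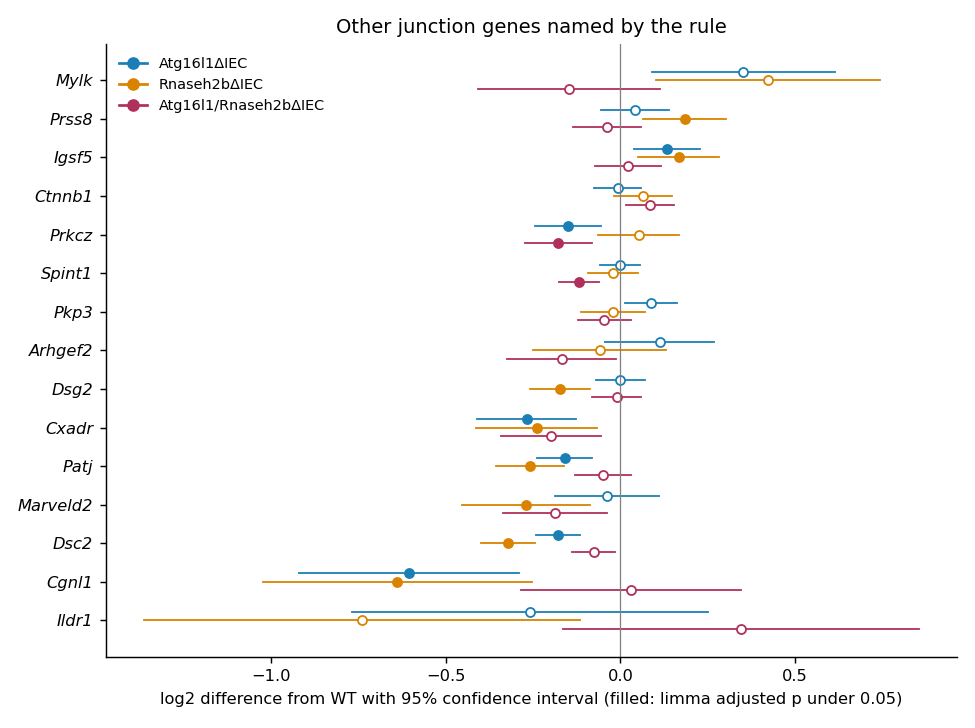
Log2 differences from WT of 15 other junction genes named by the rule, with 95% confidence intervals from limma and filled points where the test was passed. Cgnl1, Dsc2 and Patj are below WT in both single knockouts, and none of the 3 passed the test in double-knockout organoids.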

How the data were processed

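Stranded mRNA libraries of 14 small intestinal organoid samples were analysed. Per the labels' processing notes and the study's methods, the authors used cutadapt for trimming, TopHat2 for alignment to GRCm38, HTSeq for counting and DESeq2 for differential expression. They deposited log2 values of 18781 genes, and the transformation is not given in the sources used here. The values ran from -2.13 to 17.45, no library totals can be taken from them, and the precision therefore rests on the number of libraries. All 14 columns were mapped to samples by library name. Gene symbols and coordinates are from GENCODE M21 (99.7% of identifiers matched), and promoters are from RefSeq (GRCm38.p6).

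The test covered the 12802 genes whose mean was at least 3.32, or 10 before the logarithm, with limma 3.58.1 in R 4.3.3 (lmFit, contrasts.fit, eBayes with a mean trend). The fit had 1 mean per genotype over all libraries, no covariate and Benjamini-Hochberg adjustment at 0.05. The design assumed normalized values, and log2 values were tested as deposited. The method was tested on simulated data in which all libraries were independent. That test cannot judge the calls where the libraries of a pair are correlated.

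The members and the gene lists were chosen with earlier results of these data known. All members were named, and of the wider lists in each comparison the 3 genes with the largest rise and the 3 with the largest fall among those past the threshold whose libraries did not overlap between the groups (for the interaction, past the threshold alone). A gene of the scaffold list is not reported here and is in none of the list counts. The deleted genes were named, as were the 5 genes nearest in profile to each of the 2 members with the widest range of genotype means. Col1a2, Cd3e and Cldn12 were named after their values were seen, as were the marker genes that passed the filter.

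Replicate numbers are shared by the genotypes, and the labels do not say that they pair samples. Deviations of same-numbered libraries of different genotypes had correlations of -0.50 to 0.44, with 7 of 18 over 0.1. Deviations were taken from genotype means, so those of the 2 Rnaseh2bΔIEC libraries mirror each other. These correlations therefore cannot decide whether the numbers pair samples. Alternatives were a pseudocount of 1, no filter, a filter of 50, upper quartile scaling, lane as a covariate, the replicate block, paired libraries with an estimated correlation (0.65), fits restricted to the groups compared or to 1 lane, and leaving out each library. Chosen after seeing the data were the fits without each pair of libraries and the fit with Xist high or low, split at the middle of its range, as a covariate. Figures were drawn with matplotlib 3.10.9.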

Additional observations from a re-analysis of the deposited data

Results flagged for a closer look

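For Cldn15 and Tjp1 the interaction in limma passed the threshold in the main fit, at -0.3 for Cldn15 (adjusted p = 0.039) and 0.21 for Tjp1 (adjusted p = 0.0046). Neither was called with lane as a covariate or with the libraries of a pair fitted as correlated. Both deleted genes were less reduced in double-knockout organoids than in the single knockouts. Of 15 other junction genes named, some of them because they passed this test, 9 had an interaction past the threshold. Over all 48 other junction genes tested there were 13, where 35.1% of all genes tested passed. It was positive for Cgnl1 (1.27), Ildr1 (1.34), Dsc2 (0.42), Patj (0.37), Cxadr (0.31) and Dsg2 (0.16), and negative for Mylk (-0.92), Igsf5 (-0.28) and Prss8 (-0.26).

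Of 66 groups of 4 libraries examined, 3 held a library apart from the others, where chance gives about 1 in 20. Tjp1 was at 11.44 in Atg16l1ΔIEC library 2, against 11.48 to 11.49 in the others. Cgnl1 was at 8.18 in the same library, against 7.66 to 7.72. Igsf5 was at 9.40 in double-knockout library 1, against 9.50 to 9.51.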

How the results depend on the processing

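Of 1442 member values recomputed under the alternatives, 1346 kept their side of the threshold, 63 lost the call and 32 gained one. A change of sign was counted only where either fit passed the threshold. That held for 1 value, the interaction of Cldn2 (-0.86 with lane as a covariate). The counts that follow are members called of 7, and no cause of a change was tested. A pseudocount of 1 and a filter of 50 changed none of the member calls, and upper quartile scaling added Tjp1 in Rnaseh2bΔIEC against WT (1 called in place of 0). With lane as a covariate the counts became 1 for Rnaseh2bΔIEC against WT, 0 for Atg16l1ΔIEC against WT, 2 for double-knockout against Rnaseh2bΔIEC, 3 for double-knockout against Atg16l1ΔIEC (Cldn2 lost), 1 for Rnaseh2bΔIEC against Atg16l1ΔIEC and 1 for the interaction. For double-knockout against WT the count was 2, with Cldn2 in place of Cldn7. With Xist high or low as a covariate it was 2 for Atg16l1ΔIEC against WT (Tjp1 and F11r), and no other member call changed. With paired libraries and an estimated correlation they were 0 for Atg16l1ΔIEC and for double-knockout against WT, 0 for double-knockout against Atg16l1ΔIEC and 0 for the interaction. With only the groups compared they were 1 for Rnaseh2bΔIEC and 1 for double-knockout against WT, 2 for double-knockout against Atg16l1ΔIEC and 1 between the single knockouts. Within 1 lane they were 1 for double-knockout against WT, 2 against Rnaseh2bΔIEC, 2 against Atg16l1ΔIEC and 1 between the single knockouts. No filter left 1 for the interaction. Not run within 1 lane were the single knockouts against WT and the interaction, whose groups share no lane.

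The replicate block left 1 member called for the interaction and lost Cldn2 in double-knockout against Atg16l1ΔIEC organoids, added Cldn23 in double-knockout against WT and changed no other member call. Its pairing is by number only. Over all genes tested, the counts called moved by more than 1.5 times in several fits. With paired libraries and an estimated correlation they were 61 (between the single knockouts, from 872) to 1553 (interaction, from 4499), with 85 in place of 2063 for double-knockout against WT. The replicate block gave 424 in place of 872 between the single knockouts. With lane as a covariate the counts were 1504 in place of 3424 for Rnaseh2bΔIEC against WT, 1586 in place of 2450 for Atg16l1ΔIEC against WT, 2580 in place of 4499 for the interaction and 1622 in place of 872 between the single knockouts. With only the groups compared they were 2065 in place of 3218 for double-knockout against Atg16l1ΔIEC and 1260 in place of 2063 against WT, and within 1 lane 1311 for the latter. Without single libraries they ran from 757 to 3288 for double-knockout against Rnaseh2bΔIEC (from 3262), from 1135 to 3832 for Rnaseh2bΔIEC against WT, from 1001 to 2074 for double-knockout against WT, from 1827 to 3470 for double-knockout against Atg16l1ΔIEC, from 90 to 1105 between the single knockouts and from 2706 to 4714 for the interaction.

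Leaving out 1 library at a time gave 0 to 1 members for Rnaseh2bΔIEC against WT, 1 to 1 for Atg16l1ΔIEC against WT, 2 to 2 for double-knockout against WT, 0 to 1 for double-knockout against Rnaseh2bΔIEC, 2 to 4 for double-knockout against Atg16l1ΔIEC, 0 to 0 between the single knockouts and 1 to 2 for the interaction. Leaving out a pair (chosen after seeing the data) gave these counts where they moved. For Rnaseh2bΔIEC against WT they were 2 without WT 1 and 2, 3 without double-knockout 1 and 2, and 2 without double-knockout 3 and 4. For Atg16l1ΔIEC against WT they were 2 without WT 1 and 2, 0 without WT 3 and 4, 0 without Atg16l1ΔIEC 1 and 2, and 2 without either double-knockout pair. For double-knockout against WT they were 1 without either WT pair and 4 without double-knockout 3 and 4. For double-knockout against Rnaseh2bΔIEC the count was 2 without double-knockout 1 and 2. For double-knockout against Atg16l1ΔIEC they were 2 without Atg16l1ΔIEC 1 and 2, 0 without Atg16l1ΔIEC 3 and 4, and 2 without either double-knockout pair. Between the single knockouts the count was 1 without either double-knockout pair, and for the interaction it was 1 without WT, Atg16l1ΔIEC or double-knockout 3 and 4. With 2 Rnaseh2bΔIEC libraries of 1 pair, differences of this size from that genotype rest on little, and since the depth is unknown no floor can be given for low genes such as Cldn23.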
